A study of Mus musculus with 4 samples.

Results

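The genes described here are adipsin, Lpl and Fabp4, 3 of 8252 genes on the array, measured in mouse liver by 4 of its 12422 non-control probe sets. Written as array and probe set, MG_U74Av2.99671_at carries the description adipsin and has no symbol in the platform annotation. The symbol Lpl belongs to MG_U74Av2.95611_at, called the longer Lpl probe set here, and to MG_U74Av2.160083_at, the shorter one, and Fabp4 to MG_U74Av2.100567_at. The members were chosen with their signals on these arrays in view, so their values are given as a description with no test. Total liver RNA of male C57BL/6 mice was hybridised to 4 Affymetrix arrays, 1 for each of bilaterally adrenalectomised (ADX) mice at zeitgeber time (ZT) 14, ADX mice at ZT2, sham-operated mice at ZT14 and sham-operated mice at ZT2, where ZT counts hours from lights on. The adrenals were removed under ketamine and xylazine. ADX mice ate standard chow and drank 0.9% NaCl, and the sham-operated controls ate standard chow and drank water. The labels do not give the age of the mice, the number of animals behind an array, the anaesthesia of the sham-operated mice or the time between operation and sampling. The titles write sham-operated mouse in the singular and ADX mice in the plural, and whether animals were pooled is not stated. Because each group had 1 array, no difference has a replicate check, and array and group cannot be told apart.

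The 3 genes are best known from fat tissue. Adipsin, now called complement factor D with the gene symbol Cfd, is a serine protease secreted by adipocytes that cleaves factor B and so starts the alternative complement pathway. Lipoprotein lipase, encoded by Lpl, splits the triglyceride of circulating lipoproteins at the capillary wall and is abundant in fat and muscle and low in adult liver. Fabp4, also called aP2, is a cytosolic fatty acid carrier of adipocytes that macrophages and capillary endothelium also make. The adrenal glands are the main source of circulating glucocorticoids, which act on fat storage in adipose tissue and liver.

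The probe sets differ in the stretch of transcript that they cover. The target sequence of the adipsin probe set is 867 bases long and that of the longer Lpl probe set, an expressed sequence tag, 374 bases. The other targets are 89 bases of partial coding sequence for the shorter Lpl probe set and 98 bases from the 5' end of the gene for Fabp4. No upstream region is shown for Lpl or Fabp4, only the region just before the start of Cfd. It is the 250 bases before the RefSeq start on the plus strand, chr10:79890603-79890852 in GRCm38.p6, with 57.6% G or C.
Cfd upstream region: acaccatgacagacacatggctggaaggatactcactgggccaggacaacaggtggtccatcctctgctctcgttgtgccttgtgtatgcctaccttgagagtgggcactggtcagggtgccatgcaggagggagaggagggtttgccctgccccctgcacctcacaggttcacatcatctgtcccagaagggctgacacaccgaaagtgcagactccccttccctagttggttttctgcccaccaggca
The window was searched on both strands for 8 motifs. These were the TATA box as TATAAA, the CCAAT box, the E-box as CACGTG, a glucocorticoid response hexamer as TGTTCT, a form of the C/EBP site as TTGCNNAA, the D-box as TTANGTAA, and by name the Rev-erb and ROR element and the PPAR direct repeat, which can share letters. None of these letter strings occurs in it, so the sequence has no capitals. Over 32851 upstream windows of the same length, 12.4% held the TATA box, 33.8% the CCAAT box, 6.02% the E-box, 16.1% the glucocorticoid hexamer, 9.56% the C/EBP form, 2.06% the D-box, 0.609% the Rev-erb element and 0.0335% the direct repeat.

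Signals were scaled to a common trimmed mean and are given in array units, with a floor of 3.91 units for weak signals. Affymetrix software calls a probe set Present, Marginal or Absent on each array. A call of higher or lower needed a gap of at least 2-fold and a Present signal on the array with more of it, and the words rose and fell are used for such calls only. Present calls covered 44.4% to 47.0% of probe sets on the 4 arrays, and the ratio of 3' to 5' control signal was 1.69 to 1.89 for actin and 0.91 to 1.03 for Gapdh. The liver marker albumin (Alb) and the other 9 measured hepatocyte markers were Present on all 4 arrays.

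Adipsin rose in ADX liver at both times. Its signal was 101.3 units at ZT14 and 132.7 units at ZT2 in ADX livers, against 4.20 units at ZT14 and 4.44 units at ZT2 in sham livers. Both ADX arrays were high with a Present call, and both sham arrays lay close to the floor with an Absent call. The deposited detection p-value, which asks on each array alone whether the perfect-match probes outshine the mismatch probes, was 0.000468 on both ADX arrays, against 0.541 at ZT14 and 0.602 at ZT2 in sham. Because the sham signals were not Present, the folds are lower bounds. Adipsin was at least 24.1-fold higher in ADX at ZT14 and at least 29.9-fold higher at ZT2. In all, 147 probe sets (1.18%) were called higher in ADX at ZT14 and 108 (0.869%) at ZT2. With the floor raised to 23.9 units, the 95th percentile of Absent signals, the bounds became 4.24-fold at ZT14 and 5.56-fold at ZT2.

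**Figure D1:**
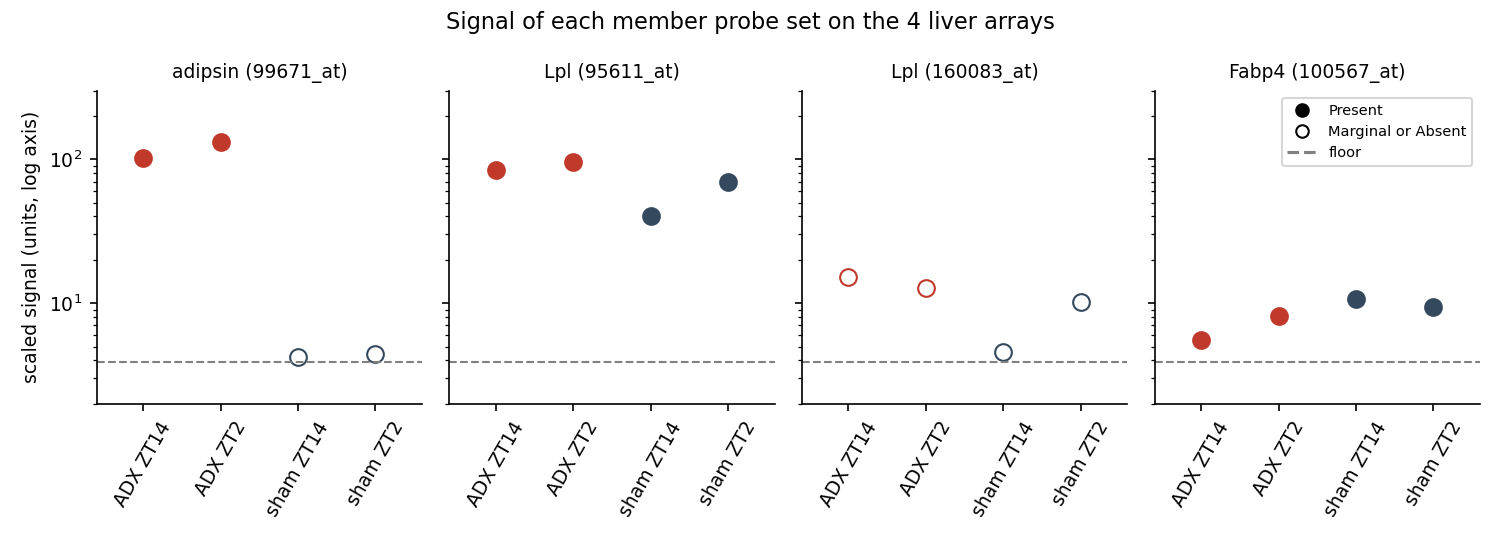
Scaled signal of each of the 4 probe sets (log axis, array units) on the ADX and sham arrays, 1 point per array, filled where Present and open where Marginal or Absent; the dashed line is the floor of 3.91 units. Adipsin lies at 101.3 and 132.7 units on the ADX arrays and near the floor on both sham arrays, while Fabp4 stays below 11 units on all arrays.

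Adipsin passed 2-fold between the times in neither group. In ADX livers the signal was 101.3 units at ZT14 and 132.7 units at ZT2, a log2 difference of -0.39, short of 2-fold. In sham livers the log2 difference of ZT14 over ZT2 was -0.08, between signals that were both Absent.

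Lpl was brighter in ADX than in sham at both times by its longer probe set, and the gap passed 2-fold at ZT14. This probe set had 83.9 units at ZT14 and 95.4 units at ZT2 in ADX livers, against 40.1 units at ZT14 and 69.4 units at ZT2 in sham livers, all Present. The sham ZT14 array was the lowest. Between operations the difference was 2.09-fold at ZT14, where Lpl rose, and 1.37-fold at ZT2, which did not pass. Without scaling the ZT14 log2 difference was 0.94, under 2-fold, against 1.07 with scaling. In sham livers the ZT14 signal of 40.1 units was 1.73-fold lower than the ZT2 signal of 69.4 units. In ADX livers the log2 difference of ZT14 over ZT2 was -0.19. Neither passed 2-fold.

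The shorter Lpl probe set was not Present on any array. It had 15.2 units (Marginal) at ZT14 and 12.8 units (Absent) at ZT2 in ADX livers, against 4.59 units at ZT14 and 10.3 units at ZT2 in sham livers, both Absent. All of these values lay under 23.9 units, the 95th percentile of Absent signals, so no order of the arrays is read from them. The log2 differences of this probe set, ADX over sham, were 1.72 at ZT14 and 0.32 at ZT2. No call was possible without a Present signal.

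Fabp4 was dim on every array and passed 2-fold in none of the 4 comparisons. Its signal was 5.55 units at ZT14 and 8.13 units at ZT2 in ADX livers, against 10.8 units at ZT14 and 9.44 units at ZT2 in sham livers, with a Present call on each array. The detection p-values ran from 0.00262 to 0.0247. At each time ADX was below sham, the opposite direction to adipsin and the longer Lpl probe set. The log2 difference of ADX over sham was -0.95 at ZT14 and -0.21 at ZT2. The ZT14 difference sits close to the 2-fold line and crossed it when the scaling was changed, at -1.08 with signals as deposited and -1.15 after quantile normalization. ZT14 over ZT2 gave -0.55 in ADX and 0.19 in sham. With the floor at 23.9 units all 4 values were at the floor.

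In total 1 of the 4 probe sets was called at ZT2 between operations, where 1.29% of all 12422 probe sets were, and 2 of 4 at ZT14, where 1.96% were. None was called between the times in ADX, where 2.63% of all probe sets were, or in sham, where 2.95% were. Since the genes were selected with these values known, nothing is read from those counts. The ADX against sham contrasts at ZT14 and ZT2 share no array. Called in both were 19 probe sets, 13 of them higher in ADX at both times, 3 lower at both and 3 in opposite directions. Adipsin was among the 13, and the Lpl and Fabp4 probe sets were not.

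**Figure D2:**
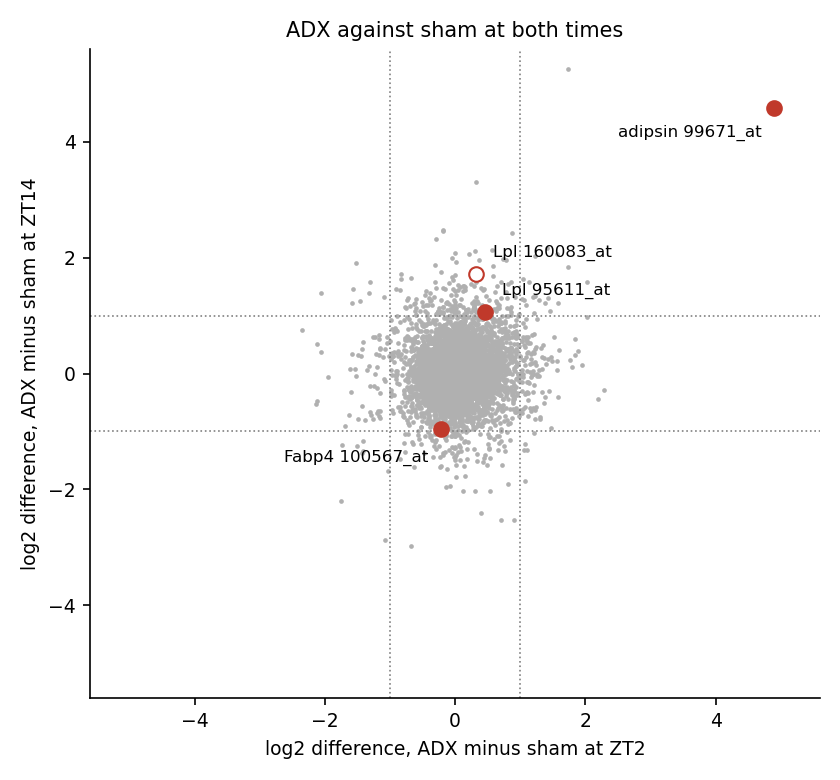
Log2 difference of ADX minus sham at ZT2 (horizontal axis) and at ZT14 (vertical axis) for each probe set Present on at least 1 array (grey points) and for the 4 probe sets of adipsin, Lpl and Fabp4 (red, open where Present on no array); dotted lines mark 2-fold. Adipsin lies at 4.90 and 4.59, the longer Lpl probe set lies just past the line at ZT14 only, and Fabp4 lies just inside it on the lower side. The shorter Lpl probe set (open) lies at 0.32 and 1.72, past the line at ZT14 but not called, since it was Present on no array.

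Genes that define adipocytes were mostly not detected. Adiponectin (Adipoq), leptin (Lep) and resistin (Retn), hormones secreted by fat cells, were Absent on all 4 arrays by every probe set. Adipoq had 2.88 units at ZT14 and 5.73 units at ZT2 in ADX livers, against 0.78 units at ZT14 and 0.56 units at ZT2 in sham livers. Retn had 3.95 and 2.92 units in ADX livers at ZT14 and ZT2, against 3.03 and 1.30 units in sham livers. These signals lay at or near the floor, so that they carry no order. The brighter Lep probe set gave 46.8 and 38.6 units in ADX livers at ZT14 and ZT2, against 23.7 and 29.2 units in sham livers, each with an Absent call. Its other probe set went the other way, with 5.34 and 4.38 units in ADX livers against 7.04 and 19.4 units in sham livers.

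Ucp1, the uncoupling protein of brown fat, was Present on the ADX ZT14 array alone, at 7.69 units, and its other probe set was Absent throughout. Plin4 and Cidec, coat proteins of the fat cell's lipid droplet, and Cidea were Absent on all arrays, as was the insulin-regulated glucose transporter Slc2a4. The hormone-sensitive lipase Lipe was measured, with 17.4 units (Absent) and 17.7 units in ADX livers at ZT14 and ZT2, against 22.2 and 15.2 units in sham livers. Plin1 and Adrb3 were not analysed here. Of 16 adipocyte markers, 14 were on the array and 8 were Present on none of the 4. Of the 6 measured, 0 were called between operations at ZT14 or at ZT2, where 3.14% and 2.16% of all 5007 measured genes were called, with median log2 differences of -0.205 and 0.153. The summed signal of the 14 genes was 153.9 units at ZT14 and 140.5 units at ZT2 in ADX livers, against 137.7 units at ZT14 and 113.8 units at ZT2 in sham livers, and the Absent Lep probe set was the largest term on 3 of the 4 arrays. The part of these genes in the adipsin difference was not tested. In such bulk RNA, fewer cells of a type and less RNA per cell cannot be told apart.

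**Figure D3:**
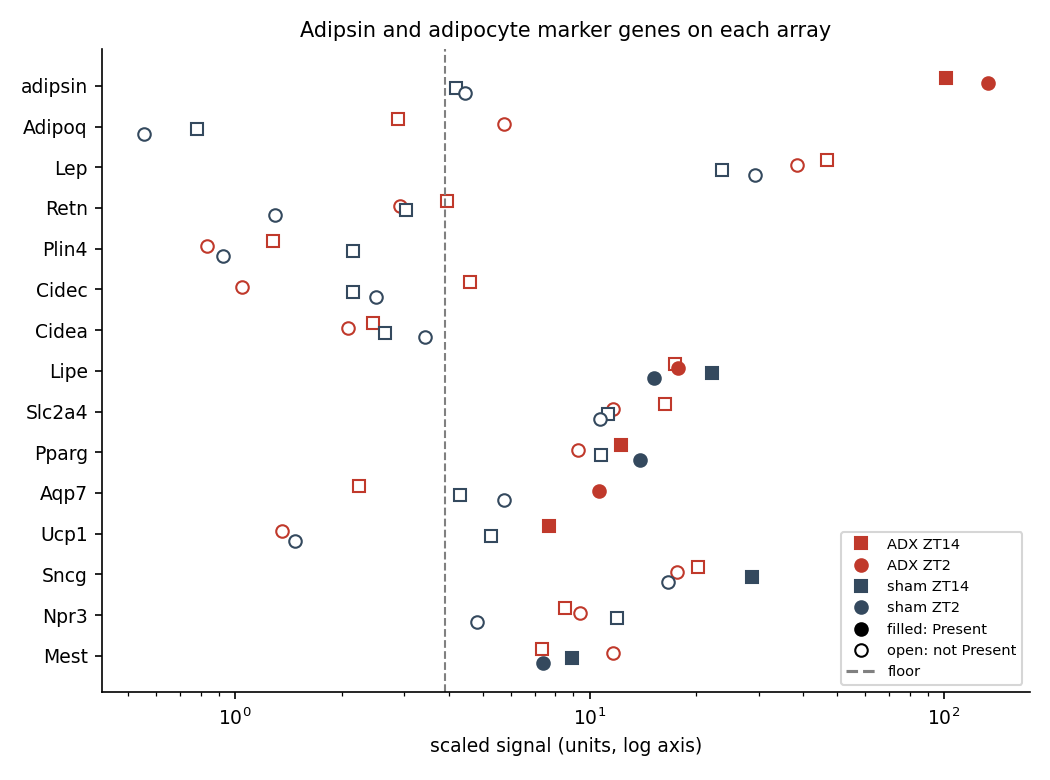
Scaled signal (log axis, array units) of adipsin and of 14 adipocyte marker genes, 1 row per gene and 1 symbol per array, filled where Present and open where not; values are to be compared within a row only, and the dashed line is the floor of 3.91 units. Adipsin shows a wide gap between ADX and sham arrays, whereas Adipoq, Lep, Retn, Plin4, Cidec, Cidea, Slc2a4 and Npr3 have open symbols throughout.

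Markers of other cell types that a liver sample can hold were also read, 1 probe set per gene. None of 10 measured endothelial markers and none of 14 measured macrophage markers was called between operations at either time. Median log2 differences of ADX over sham were 0.09 at ZT14 and -0.08 at ZT2 for endothelial markers, and 0.07 at ZT14 and 0.08 at ZT2 for macrophage markers, against 0.03 and 0.01 over all measured genes. A second probe set of the endothelial gene Emcn was at least 2.08-fold higher in ADX at ZT14, against an Absent sham signal, while the one with the higher mean differed by 0.05 on the log2 scale. The macrophage endotoxin receptor Cd14 fell at ZT14 in ADX, to 17.4 units (Absent) against 37.7 units at ZT2, at least 2.17-fold lower. The lysosomal macrophage protein gene Cd68 had 54.2 and 53.5 units in ADX livers at ZT14 and ZT2, against 36.8 and 41.2 units in sham livers, short of 2-fold. Differences of ADX over sham were negative for 5 of the 14 macrophage markers at ZT14 and for 6 at ZT2. Among 7 measured fibroblast and stellate cell markers none was called, and 6 of 7 had a positive difference at each time, with medians of 0.23 at ZT14 and 0.34 at ZT2. Their summed signal over 11 genes was 943.7 and 997.2 units in ADX livers at ZT14 and ZT2, against 914.9 and 892.9 units in sham livers, and their part in the adipsin difference was not tested. Of 13 skeletal muscle markers 12 were Present on no array. The exception was Actn3, Present on the sham ZT2 array alone at 13.0 units and at least 3.34-fold lower in ADX at ZT2. Of 8 exocrine pancreas markers on the array 2 were measured and 0 were called between operations, with medians of 0.30 at ZT14 and 0.24 at ZT2. Of 10 measured hepatocyte markers 0 were called between operations, with medians of -0.04 at ZT14 and 0.005 at ZT2. The lipoprotein gene Apob rose 2.01-fold at ZT14 in sham. At ZT14 it had 760.3 units in ADX livers against 1487 units in sham livers, 1.96-fold lower in ADX and just short of 2-fold.

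Adipsin acts in the alternative complement pathway, for which a list of complement genes was read. Most of its 9 measured genes are receptors, regulators or terminal components of complement, and factor B is not among the 9. The list thus does not stand for that pathway alone. None of the 9 was called between operations, and their median log2 difference of ADX over sham was -0.10 at ZT14 and -0.02 at ZT2. Properdin (Cfp), which stabilises the pathway's convertase, had 55.6 and 64.5 units in ADX livers at ZT14 and ZT2, against 57.9 and 77.2 units in sham livers. Factor I (Cfi), which inactivates C3b, had 1593 and 1706 units in ADX livers, against 1613 and 1826 units in sham livers. Factor B (Cfb), the substrate of adipsin, was dim. Its probe set with the higher mean had 11.5 and 7.30 units in ADX livers at ZT14 and ZT2, against 10.8 and 6.48 units in sham livers, all Absent. The other Cfb probe set was Present on the ADX ZT2 array alone, at 6.57 units, and had 1.71 units (Absent) at ADX ZT14. In sham livers that probe set had 9.77 units (Marginal) at ZT14, its highest signal, and 4.16 units (Absent) at ZT2. C3 and the hepatic lipase gene Lipc were not analysed here.

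Among the relatives of Fabp4, the liver form Fabp1 had 5135 and 5262 units in ADX livers at ZT14 and ZT2, against 5795 and 5538 units in sham livers. Fabp5, a form found in skin, fat and macrophages, had 57.5 and 80.3 units in ADX livers at ZT14 and ZT2, against 45.8 and 81.1 units in sham livers. Of 4 measured members of the family beside Fabp4, 0 were called between operations, with medians of 0.12 at ZT14 and -0.09 at ZT2. The brain form Fabp7 fell at ZT14 in both groups. Its signal was 8.75 units at ZT14 (Absent) and 20.9 units at ZT2 in ADX livers, at least 2.38-fold lower at ZT14, and 7.82 units at ZT14 (Absent) and 24.2 units at ZT2 in sham livers, at least 3.09-fold lower.

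Relatives and regulators of Lpl showed no call between operations. Of 17 measured genes 0 were called at either time, with a median log2 difference of 0.04 at ZT14 and -0.07 at ZT2. Apoc2, the cofactor that activates Lpl, had 1061 and 962.1 units in ADX livers at ZT14 and ZT2, against 766.6 and 940.8 units in sham livers. Angptl4, an inhibitor of Lpl, had 64.7 and 51.2 units in ADX livers at ZT14 and ZT2, against 82.3 and 51.2 units in sham livers. Lmf1, a factor that helps Lpl fold, had 118.3 and 135.2 units in ADX livers, against 139.2 and 157.1 units in sham livers. The one lipoprotein receptor called was Vldlr, between the times: it was Present at ZT2 and Absent at ZT14 in both groups, at least 2.16-fold lower at ZT14 in ADX and at least 2.11-fold lower in sham, with no signal of that probe set above 8.45 units. For fatty acid uptake and activation, 0 of 8 measured genes were called between operations, with medians of 0.14 at ZT14 and -0.03 at ZT2, and the fatty acid translocase Cd36 was Absent on all arrays, at 9.18 and 7.61 units in ADX livers and 4.30 and 8.88 units in sham livers.

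**Figure D4:**
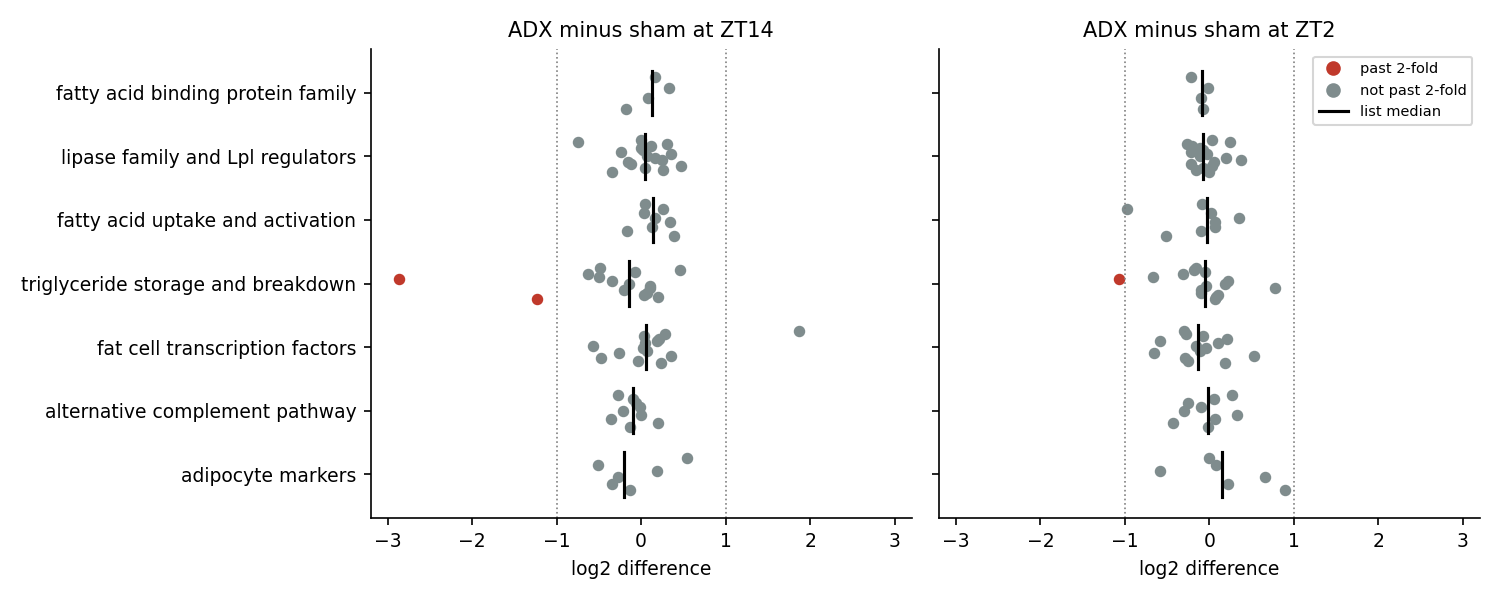
Log2 difference of ADX minus sham at ZT14 (left) and ZT2 (right) for the measured genes of 7 lists, 1 point per gene, red where past 2-fold with the brighter array Present; black bars are list medians and dotted lines mark 2-fold. The red points are Lpin1 and Abhd5 on the left and Lpin1 on the right, and the grey point at 1.87 is Stat5b, whose brighter array was Absent.

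Genes that build, coat and break down the triglyceride store of the hepatocyte were mostly short of 2-fold between operations. Of 15 measured genes, 2 fell in ADX at ZT14 and 1 at ZT2, where 1.28% and 0.739% of all measured genes were called lower, and the list medians were -0.15 and -0.06. These were Lpin1, the phosphatidate phosphatase that makes diacylglycerol, at 7.31-fold lower at ZT14 and 2.1-fold lower at ZT2, and Abhd5, the coactivator of adipose triglyceride lipase, at 2.35-fold lower at ZT14. A second probe set of the glycerol phosphate dehydrogenase Gpd1 was 2.26-fold higher in ADX at ZT14, while the one with the higher mean differed by -0.15 on the log2 scale. Lpin1 had 44.3 units at ZT14 and 28.5 units at ZT2 in ADX livers, against 324.0 units at ZT14 and 59.9 units at ZT2 in sham livers, where it was 5.41-fold higher at ZT14. Abhd5 had 41.0 units at ZT14 and 91.8 units at ZT2 in ADX livers, against 96.5 units at ZT14 and 87.9 units at ZT2 in sham livers. The ADX ZT14 array thus stood apart from the other 3.

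Between the times, G0s2, an inhibitor of adipose triglyceride lipase, rose at ZT14 in both groups. It had 508.7 units at ZT14 and 236.1 units at ZT2 in ADX livers, which is 2.15-fold higher, and 473.6 units at ZT14 and 138.1 units at ZT2 in sham livers, 3.43-fold higher. Pnpla2, the lipase itself, rose 2.11-fold at ZT14 in sham, with 195.3 units at ZT14 and 92.5 units at ZT2, and had a log2 difference of 0.75 in ADX, between 139.2 units at ZT14 and 82.7 units at ZT2. Plin2, a coat protein of hepatocyte lipid droplets, fell 2.12-fold at ZT14 in sham, with 545.0 units at ZT14 and 1153 units at ZT2. In ADX its difference was -0.43, between 752.2 units at ZT14 and 1012 units at ZT2. The differences between the groups' day-night values were not tested. The ZT14 call of Pnpla2 in sham was lost without scaling.

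**Figure D5:**
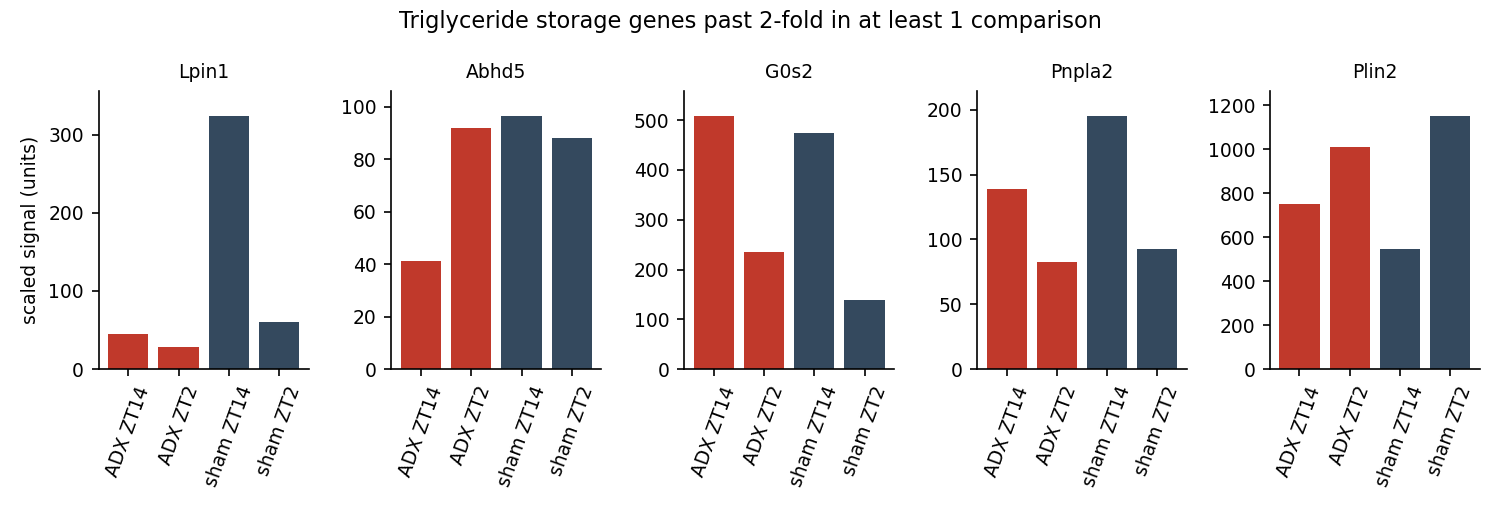
Scaled signal (array units, axes from 0) of the 5 triglyceride storage genes past 2-fold in at least 1 comparison, 1 bar per array with ADX in red and sham in dark blue. G0s2 is higher at ZT14 in both groups, Lpin1 stands out on the sham ZT14 array at 324.0 units, and Abhd5 is low on the ADX ZT14 array at 41.0 units.

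Of 14 measured transcription factors and related genes of fat cell differentiation, 0 were called between operations, with medians of 0.055 at ZT14 and -0.14 at ZT2. Pparg, the nuclear receptor that drives adipocyte genes, had 12.3 units (Present) at ZT14 and 9.28 units (Marginal) at ZT2 in ADX livers, against 10.8 units (Absent) at ZT14 and 13.9 units (Present) at ZT2 in sham livers, and the groups overlapped. Ddit3, a stress-induced C/EBP relative, rose at ZT14, at least 2.07-fold in ADX against a Marginal ZT2 signal and 2.32-fold in sham. Aqp7, the glycerol channel of fat cells, was Present only on the ADX ZT2 array, at 10.6 units, and was at least 2.72-fold lower at ZT14 in ADX. Over all 7 lists, 71 genes were measured. Called between operations were 2 of them at ZT14 and 1 at ZT2, which is 2.82% and 1.41%, near the 3.14% and 2.16% of all measured genes. Between the times 6 were called in ADX and 7 in sham, or 8.45% and 9.86%, where 4.63% and 5.19% of all measured genes were.

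The genes with patterns nearest to the members over the 4 arrays were named by a fixed measure. Among 490 genes Present on at least 2 arrays with a log2 range of at least 1, the nearest by root mean square distance of centred log2 signals were the cytochrome P450 gene Cyp2b9 (1.36), the immunoglobulin kappa segment Igkv8-19 (1.48), the matrix protein thrombospondin 2 (Thbs2, 1.52), Hoxb1 (1.72) and the macrophage elastase Mmp12 (1.73). The distances from adipsin were all above 1 on the log2 scale. Thbs2, for instance, had 19.0 and 13.0 units in ADX livers at ZT14 and ZT2, against 5.28 and 2.78 units in sham livers. Nearest to the longer Lpl probe set were the kallikrein gene Klk1b22 (0.05), Cyrib (0.05), Crip1 (0.10), Peg3 (0.11) and Mtss2 (0.11). The probe sets of Peg3 disagreed, since another one was called lower in ADX, at -1.36 at ZT14 and -1.43 at ZT2 on the log2 scale. Nearest to Fabp4 were Mtmr9 (0.07), Hus1 (0.08), Cyth2 (0.09), Tert (0.09) and Pcf11 (0.10). The shorter Lpl probe set, Present on no array, was not compared. These distances rest on 4 arrays and are a description.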

How the data were processed

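Liver RNA was measured on 4 MG_U74Av2 arrays, 1 per group, with groups and times taken from the sample titles. The authors deposited 1 table per array. Per the file headers, each holds an unlogged intensity (Signal), a Present, Marginal or Absent call and the p-value behind that call. No header or label used here names the software or a scaling target. The deposited series table holds the same intensities (largest difference 0).

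Each array was scaled to a common trimmed mean (2% removed at each end, factors 0.925 to 1.07). The 66 control probe sets were then left out. Before log2 was taken, weaker signals were raised to a floor of 3.91 units. This floor is the median of Absent signals and lies above the lowest Present one (3.05). The main rule was a difference of at least 2-fold with the brighter array Present. No p-value goes with this rule, and a fold against an array without a Present call is a lower bound. The number of arrays limits the precision.

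The platform annotation gave 1 symbol for 10833 non-control probe sets, of which 10817 matched the RefSeq table of GRCm38.p6. For genes with several probe sets the brightest on average was used, and a gene counted as measured if any of the 4 arrays had it Present. The upstream sequence is from the RefSeq table of GRCm38.p6, matched by the symbol Cfd. Members and 13 gene lists were chosen with earlier results of these data known. Named genes were the members, list genes past 2-fold in any comparison, 6 defining adipocyte markers, some near relatives and partners, and the 5 nearest patterns per member. Other named genes (Alb, Cd68, Cfp, Cfi, Apoc2, Angptl4, Lmf1, Lipe, Plin4, Cidec, Cidea, Slc2a4, Npr3, Emcn, Gpd1, Slc27a4 and Stat5b) were added after their values were seen. The calling steps were tested on simulated data. Alternatives were signals as deposited, quantile normalization, floors of 1, 7.82 and 23.9 units, and no detection filter. Python 3.11.15, NumPy 2.4.6, pandas 2.3.3 and matplotlib 3.10.9 were used.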

Additional observations from a re-analysis of the deposited data

Results flagged for a closer look

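Signs were compared between ADX and sham, and between ZT14 and ZT2, for the 4 probe sets of adipsin, Lpl and Fabp4 and for list genes past 2-fold in at least 1 of the 2 contrasts set side by side. List genes short of 2-fold in both, some of which also had opposite signs, are not given. With 1 array per group the differences between the contrasts were not tested. The shorter Lpl probe set had a log2 difference of ZT14 over ZT2 of 0.24 in ADX and -1.16 in sham, a gap of 1.40, with no Present call on any array. Fabp4 had -0.55 in ADX and 0.19 in sham, a gap of -0.74, with all signals at or below 10.8 units. Abhd5 had -1.16 in ADX and 0.13 in sham, a gap of -1.30. Cd14 had -1.12 in ADX and 0.18 in sham, a gap of -1.30, with Absent signals at ADX ZT14 and sham ZT2. Apob had -0.01 in ADX and 1.01 in sham, a gap of -1.01. Read as ADX over sham, Abhd5 had -1.23 at ZT14 and 0.06 at ZT2, the same gap of -1.30.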

How the results depend on the processing

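Adipsin kept its call and direction in ADX against sham at both times under all 6 alternatives, with log2 differences of 2.09 to 4.59 at ZT14 and 2.47 to 4.90 at ZT2. The longer Lpl probe set at ZT14 gave 0.94 with signals as deposited, under 2-fold. Fabp4 at ZT14 passed 2-fold at -1.08 as deposited and -1.15 after quantile normalization. With no detection filter, the shorter Lpl probe set passed at 1.72 in ADX against sham at ZT14 and at -1.16 between the times in sham. Called list genes numbered 2 at ZT2 between operations with signals as deposited and after quantile normalization, where Slc27a4 joined Lpin1. With the floor at 23.9 units they numbered 3 in ADX and 4 in sham between the times.

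Counts over all probe sets depended on the floor and the filter. In ADX against sham, 77 probe sets passed at ZT2 and 135 at ZT14 with the floor doubled, 20 and 46 with the floor at 23.9 units, and 799 and 1156 with no detection filter, against 160 and 244. Between the times, 120 passed in ADX and 141 in sham with the floor at 23.9 units, and 1180 and 1120 with no filter, against 327 and 367. Scaling changed the balance of directions. At ZT14 the 147 higher and 97 lower in ADX became 106 and 137 as deposited, and 117 and 119 after quantile normalization. At ZT2 the 108 higher and 52 lower became 69 and 90, and 67 and 80. Between the times, 177 higher and 150 lower in ADX became 159 and 165, and 148 and 201, while 211 and 156 in sham became 173 and 198, and 162 and 192. Signals as deposited moved the median log2 difference of measured genes at ZT2 to -0.16, against 0.01 with scaling. Arrays could not be left out in turn, since each group had 1. No paired analysis was possible because each group has 1 array and the labels give no replicate numbers. Signals near background limit what can be said of Fabp4 and the shorter Lpl probe set, which lie under the 95th percentile of Absent signals.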

Other observations

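Of the 13 probe sets higher in ADX at both times, 3 besides adipsin are given here, chosen after their values were seen. One described as an immunoglobulin kappa variable region had 157.0 units at ZT14 and 225.9 units at ZT2 in ADX livers, against 63.0 units at ZT14 and 98.6 units at ZT2 in sham livers. Mmp12, an elastase of macrophages, had 9.07 and 10.2 units in ADX livers at ZT14 and ZT2, against 1.96 and 2.04 units in sham livers. Cyp26a1, a retinoic acid hydroxylase, had 53.3 and 107.2 units in ADX livers at ZT14 and ZT2, against 25.3 and 39.1 units in sham livers. Since the 13 were picked for being higher in ADX at both times, the direction shared with adipsin is not a result.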
